A study of Homo sapiens with 6 samples.

Results

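Tubby proteins and the receptors, channels and cyclases of the ciliary membrane were followed in PANC-1 cells, a line from a human pancreatic ductal adenocarcinoma, after siRNA against the transcription factor SOX9. The 8 genes are TUB, TULP3 and TULP4 of the tubby family, the receptor GPR161, the polycystins PKD1 and PKD2, and the adenylyl cyclases ADCY3 and ADCY6. They were chosen from a list of symbols written when the fold changes and adjusted p-values of this comparison were already known, so every value here is a description and gives no independent test. All 8 were among the 19830 genes of the authors' deposited table and among the 14063 that received an adjusted p-value there (called tested below).

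The comparison has 2 libraries from cells transfected with 25 nM SOX9 siRNA and 2 from cells given the same amount of control siRNA. Cells were otherwise untreated, were taken 48 hours after lipid transfection and were pooled at harvest. All libraries are of a single line grown in serum, and nothing in the labels ties a library to a separate culture, so the p-values reflect only how these libraries vary, and that variation may be technical. Stranded total RNA was sequenced to a stated minimum of 60000000 reads of 100 bp per library. The table holds 1 mean count per gene over the 4 libraries and no library's own value, so per-library levels and standard deviations cannot be given. Control and SOX9 siRNA means are therefore those implied by the mean count and the fold change, with equal weight for each library. Fold changes are read as SOX9 siRNA over control siRNA from the negative sign at SOX9, since the table names no numerator, and every direction turns if that reading is wrong.

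SOX9, the siRNA target, had an implied mean of 3184 normalized counts with control siRNA and 1782 with SOX9 siRNA, 55.9% of control (95% interval 39.2% to 79.8%), and its adjusted p = 0.0643 (DESeq2) in the authors' deposited table missed the threshold of 0.05. Of the fixed duct and epithelial markers, which include SOX9 itself, 8 of 9 were tested. Of these 6 had positive values and the median log2 fold change was 0.38. The keratin KRT8, the most abundant, had a mean of 203350 normalized counts and a log2 fold change of 0.55 ± 0.18 (SE) with adjusted p = 0.0786 in the authors' deposited table. The keratins KRT18 and KRT19 were both at 0.50 there, and neither was called (adjusted p under 0.05), as 1.81% of all tested genes were. The adhesion protein EPCAM was the called marker there and stood at 29.5% of control (95% interval 19.4% to 44.8%). Of leukocyte markers 2 of 5 in the table were tested and of endothelial and fibroblast markers 1 of 9, with 0 called in either list. The tested leukocyte markers CD14 and ITGAM had means of 52.2 and 105 normalized counts and log2 fold changes of 1.21 ± 0.61 and 0.91 ± 0.50 (SE) in the authors' deposited table, while PTPRC, which marks all leukocytes, had a mean of 2.28. The part of these markers in the values below was not tested. Untested leukocyte markers had means of at most 6.94 normalized counts in the authors' deposited table, and untested endothelial and fibroblast markers at most 4.37. No marker with a row was listed at 0, and the leukocyte markers CD3E and MS4A1 had no row. In bulk RNA, fewer cells of a type and less RNA per cell cannot be told apart.

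The primary cilium is a microtubule-based antenna whose membrane holds its own set of receptors, channels and enzymes. Tubby proteins bind phosphoinositide lipids at the cell membrane, and TULP3 in particular links membrane proteins to the intraflagellar transport complex A (IFT-A), which brings them into the cilium. GPR161 is such a cargo: it is a receptor that keeps cyclic AMP (cAMP) in the cilium high and so holds back Hedgehog signalling. Polycystins form a ciliary channel complex whose loss causes polycystic kidney disease, and ADCY3 and ADCY6 are cyclases that make cAMP there. SOX9 marks duct and progenitor cells of the pancreas, which are ciliated.

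TUB was lower with SOX9 siRNA, and the other 7 genes were not called. Called means an adjusted p under 0.05 in the authors' DESeq2 comparison. In that comparison 1.81% of tested genes were called, 0.939% lower and 0.868% higher, and 1 of the 8 genes was called, lower. Since the list was made with this contrast known, nothing is read from its share. The median log2 fold change of the 8 genes was -0.13, beside -0.02 over all tested genes, and 6 of the 8 were negative, beside 52.1% of all tested genes. At an unadjusted p under 0.05, which 11.1% of tested genes reached, ADCY3 joined TUB.

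**Figure D1:**
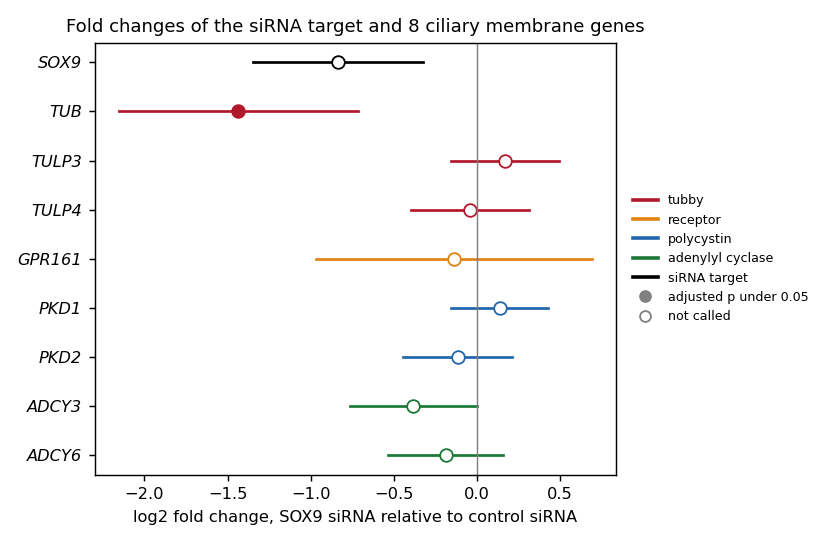
Each row plots the log2 fold change of 1 gene, SOX9 siRNA relative to control siRNA, with its 95% interval as a line and SOX9, the siRNA target, in black on top. The filled point of TUB at -1.44 stands left of the intervals of the other 7 ciliary membrane genes, and 6 of those 7 intervals cross 0.

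TUB, the founding tubby protein, is best known from the obese and retina-degenerating tubby mouse and carries receptors into neuronal cilia. Its implied mean was 238 normalized counts with control siRNA and 87.8 with SOX9 siRNA, from a mean of 163 in the authors' deposited table. Its level thus stood at 36.9% of control, between 95% bounds of 22.4% and 60.8%. On the log2 scale TUB changed by -1.44 ± 0.37 (SE) with adjusted p = 0.0109 (DESeq2) in the authors' deposited table. Among 14063 tested genes TUB ranked 116 by p, and it was 10th in size among the 132 genes that fell. Of the 1163 tested genes whose mean count lay within 1.5-fold of that of TUB, 2, TUB included, had a log2 fold change as low.

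The error of TUB was set by more than counting. At the implied means, counting alone would give a standard error of 0.13, against 0.37 in the authors' deposited table. The rest equals a spread between libraries of 23.9% (coefficient of variation), part of which DESeq2 takes from other genes of like count. Genes near its mean count had a median standard error of 0.34 in the authors' deposited table, so that of TUB was ordinary for its level. The call depended on the adjustment: adjusted p = 0.0716 with an empirical null and adjusted p = 0.111 with Benjamini-Yekutieli adjustment both ended it, and a test against a 1.5-fold change gave adjusted p = 1. Settings that change only the count filter and keep TUB left its adjusted p between 0.00985 and 0.0154. A mean count minimum of 500 left TUB out.

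TULP3 and TULP4, the other tested tubby genes, had values near control. TULP3, the family member that loads GPR161 and polycystins onto IFT-A, had implied means of 1646 and 1848 normalized counts with control and SOX9 siRNA. Its log2 fold change was 0.17 ± 0.17 (SE) in the authors' deposited table, 112% of control, between bounds of 89.7% and 141%. TULP4, the longest tubby relative, which also carries a SOCS box, went from an implied 4153 to 4027 normalized counts. TULP4 had a log2 fold change of -0.04 ± 0.18 (SE) in the authors' deposited table, and its sign turned to 0.01 after centring on abundant genes. The point estimate of TUB lay 1.60 below that of TULP3 and 1.39 below that of TULP4 on the log2 scale. These differences were not tested, and the interval of TUB did not overlap that of either. TULP1 and TULP2, known from photoreceptors and testis, had means of 5.05 and 2.54 normalized counts in the authors' deposited table and were not tested.

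**Figure D2:**
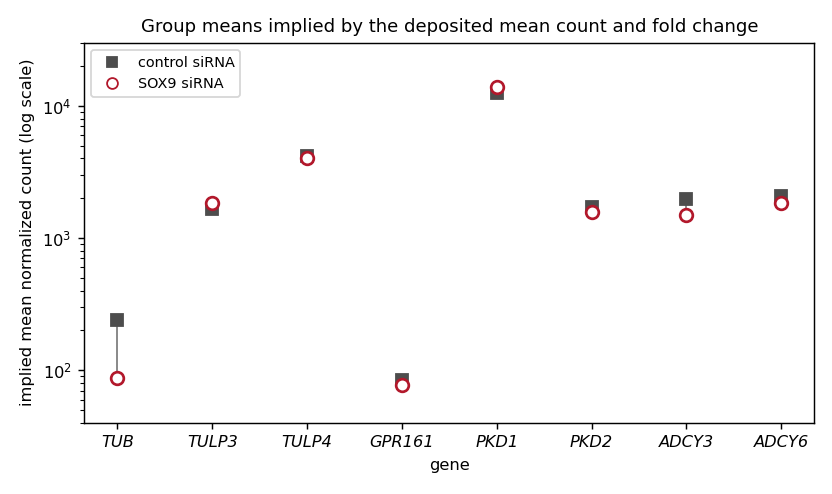
The implied mean normalized count of each gene with control siRNA (squares) and SOX9 siRNA (circles) is plotted on a log axis; libraries cannot be drawn singly. TUB shows the wide gap, 238 against 87.8, while both symbols of each other gene lie close together; counts are not corrected for gene length, so heights do not rank genes.

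The sequences before the start sites of TUB, the tubby gene that fell, and TULP3, a relative that was not called, are shown. RefSeq windows (GRCh38.p14) were matched for 6 of the 8 genes, 13 windows in all. No window was matched for ADCY6 or for TULP4, the other tested relative that was not called. TUB has 3 annotated starts, on the plus strand of chromosome 11, and TULP3 has 1, on the plus strand of chromosome 12. Each sequence is the 250 bases before the start, 5′ to 3′. Capitals mark RFX-type letters: GTTGCC on either strand, and GTTGC followed after 4 bases by GNAAC, also on either strand. The paired letters resemble the X-box, the element read by RFX factors of ciliated cells, without matching its published consensus.
TUB start 1, chr11:8018995-8019244: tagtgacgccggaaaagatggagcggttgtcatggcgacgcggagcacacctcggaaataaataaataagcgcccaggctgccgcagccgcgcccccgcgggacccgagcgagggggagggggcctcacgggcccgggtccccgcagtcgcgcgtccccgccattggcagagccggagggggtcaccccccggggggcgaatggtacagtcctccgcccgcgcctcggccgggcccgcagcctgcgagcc
TUB start 2, chr11:8038383-8038632: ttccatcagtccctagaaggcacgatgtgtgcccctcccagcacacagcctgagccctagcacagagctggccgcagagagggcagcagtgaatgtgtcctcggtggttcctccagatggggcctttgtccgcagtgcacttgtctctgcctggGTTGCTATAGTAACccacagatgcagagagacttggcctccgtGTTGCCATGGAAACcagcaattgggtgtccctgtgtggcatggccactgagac
TUB start 3, chr11:8080961-8081210: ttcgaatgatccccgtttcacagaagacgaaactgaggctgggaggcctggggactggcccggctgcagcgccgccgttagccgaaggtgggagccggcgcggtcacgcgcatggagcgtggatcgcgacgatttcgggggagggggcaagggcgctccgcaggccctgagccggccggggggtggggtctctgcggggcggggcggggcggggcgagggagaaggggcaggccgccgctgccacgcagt
TULP3, chr12:2890641-2890890: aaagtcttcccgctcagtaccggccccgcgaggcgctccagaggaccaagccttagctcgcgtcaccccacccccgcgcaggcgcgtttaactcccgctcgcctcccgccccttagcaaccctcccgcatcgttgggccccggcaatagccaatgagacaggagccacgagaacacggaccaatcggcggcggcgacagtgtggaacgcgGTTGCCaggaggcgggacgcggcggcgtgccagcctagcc

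The window of the second TUB start held 2 such paired motifs, GTTGCTATAGTAAC from 96 to 83 bases before the start and GTTGCCATGGAAAC from 53 to 40 bases before it. The second of these contains the single GTTGCC of that window. This spacing and these letters were set after the bases of TUB were seen. In all RefSeq windows of the same length, 216 of 35116 (0.615%) held at least 1 such pair and 3 held more than 1. The published X-box consensus, which differs from this form in its letters, was found in 0 of the 13 windows of these genes and in 0.626% of all windows. TULP3 held a single GTTGCC from 40 to 35 bases before its start, letters that 10.2% of all windows have. Which TUB start PANC-1 cells use cannot be read from a table of 1 value per gene.

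Letters read by SOX factors were searched on both strands in the same windows. AACAAT was in 0 of the 13 windows and in 8.98% of all windows. ACAAAG was in 5 of the 13, namely at the second TUB start and at 4 of the 5 GPR161 starts, some of whose windows overlap, and in 13.7% of all windows. TGACGT, the core letters of cAMP response elements, was in 0 of the 13 and in 7.10% of all windows. GC content of the TUB windows was 72.8%, 58.4% and 73.2% in the order of the starts, that of the TULP3 window 68.8%, and the median over all windows 58.0%. A match is a description of letters, and SOX9 binding at these sites was not analysed here.

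GPR161 was scarce and its change was poorly resolved. The implied means of this Hedgehog-restraining receptor were 84.2 normalized counts with control siRNA and 76.6 with SOX9 siRNA. The authors' deposited table lists GPR161 at -0.14 ± 0.42 (SE) with adjusted p = 0.971 (DESeq2), and its interval ran from 51.2% to 162% of control. At that error only a fall to 37.7% of control or less, or a rise of at least 2.65-fold, would have been called. The fall of TUB, to 36.9% of control, would lie only just past that limit, so a smaller fall of GPR161 could not have been called at this error. Counting alone would give GPR161 a standard error of 0.16.

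PKD1 and PKD2 stayed close to control within narrow intervals. PKD1, the large receptor-like polycystin, had implied means of 12583 and 13837 normalized counts with control and SOX9 siRNA. Its log2 fold change in the authors' deposited table was 0.14 ± 0.15 (SE) with adjusted p = 0.846, an interval from 89.9% to 134% of control. PKD2, the channel subunit, had implied means of 1710 and 1577, and its log2 fold change there was -0.12 ± 0.17 (SE) with adjusted p = 0.906. The interval of PKD2 ran from 73.5% to 116% of control, so both intervals exclude a 2-fold change in either direction.

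PKD1 is uncertain because 6 pseudogenes on the same chromosome copy most of its exons. Of these PKD1P1 and PKD1P6 had rows, with means of 835 and 1812 normalized counts in the authors' deposited table, together 20.0% of the mean of PKD1. Their log2 fold changes were -0.30 ± 0.22 and -0.29 ± 0.20 (SE) in the authors' deposited table, and neither was called. How reads were shared among the copies was not tested. The end of PKD1 also overlaps that of TSC2, whose log2 fold change was 0.09 in the authors' deposited table.

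ADCY3 and ADCY6 were both lower by point estimate, and neither was called. ADCY3, the cyclase that marks neuronal cilia, went from an implied 1963 to 1504 normalized counts. Its log2 fold change in the authors' deposited table was -0.38 ± 0.19 (SE) with adjusted p = 0.444, and its interval ran from 58.8% to 99.8% of control. ADCY6, a calcium-inhibited cyclase found in cilia of kidney and duct epithelia, went from 2083 to 1828 normalized counts. ADCY6 had a log2 fold change of -0.19 ± 0.18 (SE) with adjusted p = 0.803 in the authors' deposited table, an interval from 69.0% to 112%. ADCY3 overlaps the centromere gene CENPO in RefSeq, which stood at -0.44 ± 0.26 (SE) in the authors' deposited table. Without knowledge of strand in the counting, reads of the overlap cannot be assigned.

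**Figure D3:**
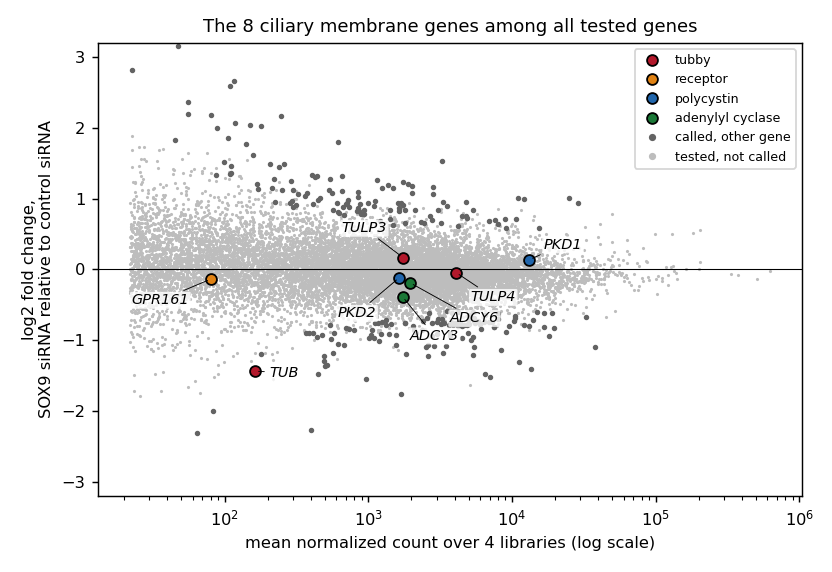
The log2 fold change of every tested gene is plotted against its mean normalized count (log axis), with called genes in dark grey and the 8 ciliary membrane genes in colour; 3 genes lie outside the axis range of -3.2 to 3.2. TUB lies at the lower edge among genes of its count, and the other 7 lie inside the cloud of genes that were not called.

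The precision differed by count across the 8 genes. Standard errors were 0.15 to 0.19 for the 6 more abundant genes, and 0.37 and 0.42 for TUB and GPR161, in the authors' deposited table. A fall would have been called at 71.1% of control or below for PKD1 and at 63.9% or below for ADCY3, with the other 4 abundant genes in between. Intervals of 7 of the 8 genes, all but TUB, lay within a 2-fold change either way.

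Genes that act with tubby proteins were taken from lists of textbook members. The 6 IFT-A subunits had 0 called genes and a median log2 fold change of 0.53, beside -0.02 over all tested genes. Of these 4 were higher at an unadjusted p under 0.05, which 11.1% of all tested genes reached in either direction. WDR19 came nearest to the threshold, with a log2 fold change of 0.57 ± 0.18 (SE) and adjusted p = 0.0610 in the authors' deposited table. IFT122, the most abundant subunit, was at 0.21 ± 0.17 (SE), IFT43 at 0.73 ± 0.24, IFT140 at 0.56 ± 0.20 and WDR35 at 0.51 ± 0.19 in the authors' deposited table. TTC21B was the subunit with a negative value there, -0.20 ± 0.20 (SE). TUB and these 5 subunits thus had point estimates of opposite sign, a difference that was not tested.

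Lipid-anchored cargo and its shuttles had 0 called among 13 tested genes, with a median of 0.03. RAB34, a GTPase of cilium formation and the most abundant of them, had a log2 fold change of 0.00 ± 0.16 (SE) in the authors' deposited table.

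Enzymes of phosphoinositides and of the phospholipase C branch set the lipid that tubby proteins bind and release. They had 1 fall and 0 rises among 16 tested genes, with a median of -0.09. Of all tested genes 0.939% were called lower and 0.868% higher. OCRL, an inositol 5-phosphatase that removes this lipid and reaches the base of cilia, fell from an implied 7491 to 3250 normalized counts. OCRL stood at 43.4% of control (95% interval 32.3% to 58.2%), with a log2 fold change of -1.20 ± 0.22 (SE) and adjusted p = 2.78e-05 in the authors' deposited table. By p it ranked 13 among all tested genes. Its relatives INPP5B and INPP5E, with the same enzymatic activity toward this class of lipid, were listed at -0.25 ± 0.25 and -0.08 ± 0.23 (SE) in the authors' deposited table and were not called. GNA11, a G protein alpha subunit that activates phospholipase C and the most abundant gene not called, was at -0.08 ± 0.17 (SE) in the authors' deposited table.

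Many other ciliary receptors had too few counts to be tested. Of 28 listed G protein-coupled receptors 23 had a row, 11 were tested, 0 were called and the median log2 fold change was -0.06. PTGER4, a prostaglandin receptor and the most abundant of them, had a log2 fold change of -0.37 ± 0.26 (SE) at a mean of 2180 normalized counts in the authors' deposited table. Receptors of neuronal cilia varied in count: SSTR3, MCHR1 and HTR6 had means of 1.24, 1.33 and 5.16 normalized counts in the authors' deposited table and were not tested. The dopamine receptors DRD1 and DRD2 and the kisspeptin receptor KISS1R had means of 425, 75.1 and 71.6 there and were not called. SMO, the Hedgehog transducer that GPR161 opposes, had a mean of 21.7 normalized counts there and was not tested.

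The Hedgehog list, the pathway that GPR161 restrains, had 1 rise and 0 falls among 15 tested genes, with a median of 0.00. Calls over all tested genes were 0.868% higher and 0.939% lower. SHH, a secreted ligand, rose 1.64-fold (95% interval 1.23 to 2.20), with adjusted p = 0.0451 in the authors' deposited table. By p it ranked 241 among all tested genes, of which 254 were called. With adjustment over every gene with a p, 191 genes were called and SHH was not among them. The target genes GLI1 and PTCH1 were listed at 0.29 ± 0.35 and -0.28 ± 0.33 (SE) in the authors' deposited table and were not called. STK36, a kinase of the pathway and its most abundant tested gene not called, was at 0.19 ± 0.17 (SE) in the authors' deposited table.

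The wider polycystin family had 4 tested genes and 0 called, with a median of -0.02. PKD1L1, a partner of polycystins in left-right patterning, was at 0.08 ± 0.31 (SE) in the authors' deposited table. Genes of polycystin maturation and cystic kidney disease had 0 called among 17, with a median of 0.04. GANAB, the glucosidase subunit needed for PKD1 to mature and the most abundant of them, was at -0.07 ± 0.15 (SE) in the authors' deposited table.

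Of 10 adenylyl cyclases 6 were tested, 0 were called and the median was -0.29, with 4 of 6 negative. ADCY9, the most abundant, had a log2 fold change of 0.01 ± 0.16 (SE) in the authors' deposited table. ADCY7 and ADCY1 were listed there at -0.49 ± 0.32 and -0.72 ± 0.49 (SE), and ADCY5 at 0.47 ± 0.61. Downstream, G proteins, protein kinase A subunits, phosphodiesterases, receptor kinases and other cAMP signalling genes had 0 called among 35, with a median of 0.02. GNAS, which encodes the cyclase-stimulating G protein, was their most abundant gene and was at -0.04 ± 0.16 (SE) in the authors' deposited table. Targets of cAMP signalling had 0 called among 11, with a median of -0.22, 8 negative values and 3 positive. The lowest were AREG and RGS2, at -1.79 ± 0.74 and -1.18 ± 0.62 (SE) in the authors' deposited table. Their means were 25.7 and 123 normalized counts there. The phosphatase gene DUSP1, the most abundant target, was at -0.17 ± 0.21 (SE) in the authors' deposited table.

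**Figure D4:**
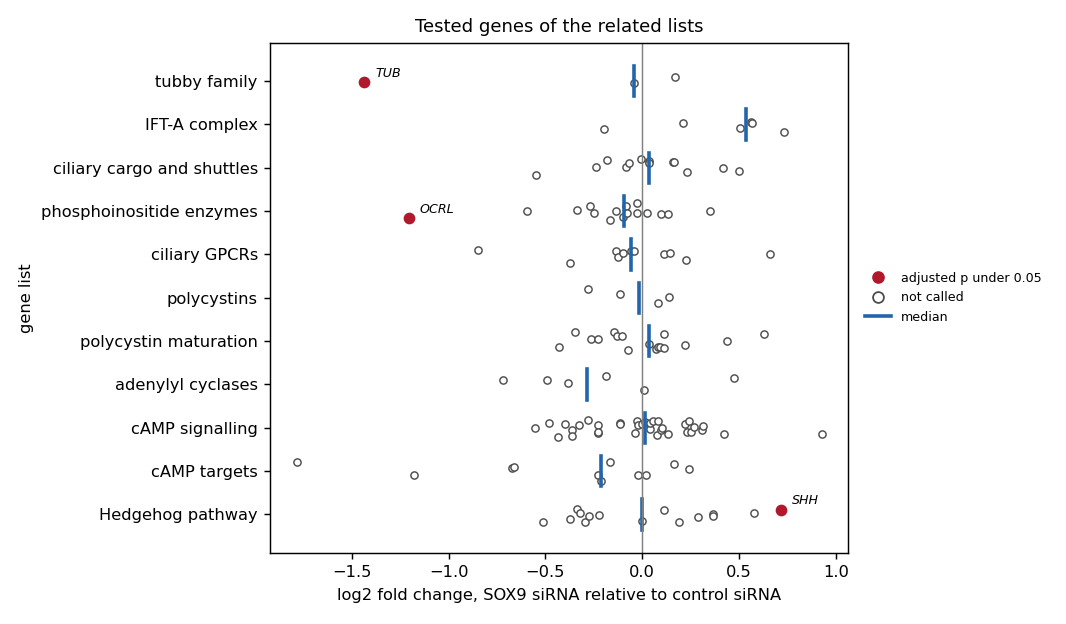
Each point is the log2 fold change of 1 tested gene in 1 of 11 lists of pathway genes (the 4 lists of cell type markers are not drawn), with called genes filled and named and the median of each list as a bar. TUB, OCRL and SHH are the called genes, and the median of IFT-A stands at 0.53 while those of the other lists drawn lie between -0.29 and 0.04.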

How the data were processed

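RNA reads of the 4 siRNA libraries were aligned with HISAT2 2.0.5, counted with featureCounts and compared by the authors with DESeq2 1.18.1, per the submitters' processing notes. Settings, annotation, the role of the listed builds and strand use in counting are not given in the sources used here. Per the file headers, the deposited values for each gene are a mean normalized count (a signal scaled by size factors), a log2 fold change with its error, a Wald statistic (a score), a p-value and an adjusted p-value. Both kinds of p-value are printed as deposited, except under the alternative settings, for which they were computed anew. The table gave 14063 genes an adjusted p, and 5767 with means up to 21.93 none; the depth of single libraries is unknown.

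Intervals are 95% Wald intervals (1.96 standard errors). Implied group means assume equal weight per library and size factors near 1, and counting errors derived from them cover counting only. Python 3.11.15 with pandas 2.3.3 and scipy 1.17.1 was used. Of 218 entries in 15 lists, 206 were matched, 2 by an older name. No list was tested.

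The members and lists were chosen with earlier results of these data known. The naming rule took the 8 genes, SOX9 and, from each list, called genes and the most abundant tested gene not called; other list genes and neighbours were named after their values were seen. No likeness of pattern between genes was computed, since each gene has 1 fold change. Alternatives were other count filters, adjustments, thresholds, nulls and centrings. The Benjamini-Hochberg and Benjamini-Yekutieli adjustments, the 1.5-fold test and the empirical null were run on simulated fold changes. Implied means, counting errors, list counts and motif searches were not checked on simulated data. Chromatin samples of the series (2, for SOX9) were not analysed here. Some results are not reported here.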

Additional observations from a re-analysis of the deposited data

How the results depend on the processing

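The call of TUB, and with it the count of 1 called gene among the 8, was kept under adjustment over every gene with a p, under mean count minimums of 10, 50 and 100, and at an adjusted p under 0.1. The count was 0 at an adjusted p under 0.01, with the 1.5-fold test, with Bonferroni adjustment, with Benjamini-Yekutieli adjustment and with the empirical null. It was also 0 at a mean count minimum of 500, where TUB is not among the genes left. The adjusted p of TUB ranged from 0.00985 to 1 over 8 alternatives that gave one. Over all genes the calls numbered 254, and 191 to 260 under the count filters, 109 at 0.01, 368 at 0.1, 96 with the empirical null, 72 with Benjamini-Yekutieli, 32 with Bonferroni and 3 with the 1.5-fold test. Centring moved each fold change of the 8 genes by 0.02 or 0.05 and turned the sign of TULP4 alone. At a mean count minimum of 100, counts of called genes were equal in the 14 lists with genes left, and 13 of their medians moved by less than the median standard error of 0.22; that of neuron markers went from 0.22 to -0.02. No paired analysis was possible because the table has no values per library, and for the same reason no replicate was left out in turn.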

Other observations

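Neuron markers were looked at because TUB, ADCY3 and several receptors above are best known from neuronal cilia. Of 7 with a row 5 were tested and 0 were called, with a median log2 fold change of 0.22. TUBB3, a tubulin of neurons and of many carcinoma lines, had a mean of 9966 normalized counts and a log2 fold change of 0.22 ± 0.26 (SE) in the authors' deposited table. SYP and MAP2, a synaptic vesicle protein and a dendrite protein, had means of 518 and 1026 normalized counts there. Their log2 fold changes were 0.50 ± 0.36 and -0.25 ± 0.19 (SE) in the authors' deposited table. The neuron markers RBFOX3 and SYT1 were at 0.60 ± 0.66 and -0.38 ± 0.42 (SE) there. Of the 5 tested markers 3 were thus positive and 2 negative. The part of these markers in the value of TUB was not tested.

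Genes beside or over the 8 genes were listed from RefSeq gene order. RIC3, a receptor chaperone whose gene overlaps that of TUB, had a mean of 28.2 normalized counts and a log2 fold change of 0.65 ± 0.80 (SE) in the authors' deposited table. EIF3F, a translation factor gene and the nearest protein-coding gene before TUB on the chromosome, was at -0.21 ± 0.16 (SE) in the authors' deposited table. Beside ADCY6, CCNT1, a cyclin of transcription elongation, was at -0.56 ± 0.17 (SE) with adjusted p = 0.0512 in the authors' deposited table. Beside PKD1, RAB26, a GTPase of secretory granules, was at 0.52 ± 0.18 (SE) with adjusted p = 0.119 in the authors' deposited table. None of the neighbours with a row was called.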
